A study of Arabidopsis thaliana with 20 samples.

Results

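The organelle chaperonin genes of Arabidopsis thaliana are 9 nuclear genes for the barrel-forming chaperonins of the chloroplast and the mitochondrion, and 8 of the 9 carried a listed HSFA1d peak in at least 1 of 6 peak lists. They were taken by locus identifier, and a peak counted for a gene when a row of the list carried that identifier, as promoter or as gene. The background was 27444 nuclear protein-coding genes, of which 4614 had a peak in any list. The 9 genes were chosen by their names and by the presence, fold and q of their peaks in these same lists, so every count and level below is a description and carries no test.

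Chaperonins are large ATP-driven barrels in which a newly imported or unfolded protein can fold out of reach of other proteins. The chloroplast barrel is built from alpha and beta CPN60 subunits and is closed by a co-chaperonin lid such as CPN20, and it is best known for folding the large subunit of Rubisco. The mitochondrial barrel is built from HSP60 and closed by CPN10. HSFA1d belongs to the class A1 heat shock factors, activators that sense unfolded proteins and switch on chaperone genes.

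The plants were 2-week-old whole seedlings of mixed Col-0 and Ws background, grown at 22 °C, that all carried pHSFA1d::HSFA1d-GFP, a fusion driven by the gene's own promoter. In each condition chromatin was precipitated with anti-GFP and set against input. Heated plants (HS) spent 30 min at 37 °C, and HT0 was their untreated time 0. Either group held 3 ChIP samples and 3 of input, with some 60 seedlings in a sample. Wounded plants were razor-cut and sampled after 10 min (W10min), 3 h (W3h) and 24 h (W24h), and WT0 was their untreated time 0, each with 1 ChIP and 1 input sample. No plants without the fusion were used here. Reads of a condition were concatenated by the authors, so each condition has 1 list and replicate spread is unknown for every value. A minimum of 10 M mapped reads per library is all that is stated of depth. In whole seedlings, binding in fewer cells and weaker binding per cell cannot be told apart.

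After heat, 8 of the 9 chaperonin genes carried a peak in the HS list and 2 did in HT0, where 7.82% and 3.11% of all coding genes had one. Along the wounding series 2 members had a peak in WT0 and 7 in W10min, against 7.1% of coding genes in either list. W3h named 5 members and W24h named 1, against 2.55% and 1.46%. HS held 2103 peaks and HT0 1336, while WT0 held 1483, W10min 1445, W3h 626 and W24h 509, so the later wounding lists are also the shortest. Fold enrichment is the authors' value for ChIP over background at a peak. It ranks peaks within a list, and folds or ranks of different lists do not measure a change.

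**Figure D1:**
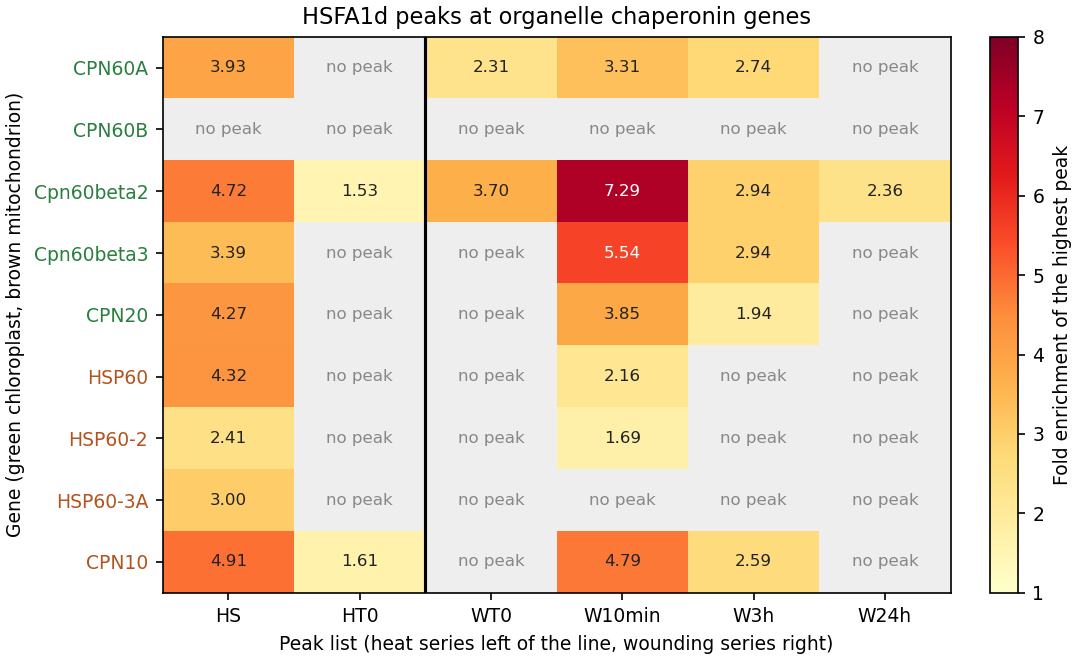
Fold enrichment of the highest listed peak (colour and number) for each of the 9 genes (rows) in each of the 6 peak lists (columns), grey where no peak was listed. The HS and W10min columns hold 8 and 7 peaks, HT0 and WT0 hold 2 each, and CPN60B has none. Colours compare genes within a column.

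Cpn60beta2 (AT3G13470), a beta subunit of the chloroplast barrel, was the only member with a peak in all 6 lists. After heat its highest peak had a fold of 4.72 at q 5.21e-31 in HS, rank 38 of 2103, and in HT0 one of 1.53 at q 0.432, rank 901 of 1336. The HS peak thus stood near the top of its list, and the HT0 peak lay below the middle. At WT0 the fold was 3.70 with a q of 2.98e-16, rank 49 of 1483. W10min gave a fold of 7.29 at q 4.12e-55, rank 3 of 1445. The gene was the highest chaperonin of W3h, with a fold of 2.94 at q 2.79e-11, level with Cpn60beta3. It was the lone chaperonin of W24h, with a fold of 2.36 at q 1.1e-04, rank 121 of 509.

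The highest peak of Cpn60beta2 in each of the 6 lists lay at 1 place, and HS held 2 further weak peaks beside it. On the TAIR10 build the W10min peak covered chromosome 3, 4388767 to 4389357, the HS peak 4388817 to 4389304 and the WT0 peak 4389020 to 4389236. The widths were 488 bp in HS and 180 bp in HT0, and 217 bp in WT0, 591 bp in W10min, 265 bp in W3h and 234 bp in W24h. A core of 154 bp, 4389030 to 4389183, was common to all 6. Positions about a gene are given from its annotated 5′ edge at 0, with negative values upstream, and this core ran from -226 to -73 bp. Every Cpn60beta2 peak was also annotated to the promoter of ECT2 (AT3G13460), a reader of methylated adenosine in mRNA that is transcribed the other way, so the lists do not say which of the genes the binding belongs to.

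Cpn60beta3 (AT5G56500), another beta subunit, had a peak in HS but not in HT0, and at W10min and W3h and none at WT0 or W24h. The fold was 3.39 with a q of 1.17e-14 in HS. It was 5.54 with a q of 1.35e-33 in W10min and 2.94 with a q of 2.79e-11 in W3h. Among chaperonins it came second in W10min, at rank 17 of 1445 peaks, and sixth in HS, at rank 126 of 2103. The W10min peak covered chromosome 5, 22873451 to 22873795. Its peaks lay almost wholly upstream of the gene, from -311 to -34 bp in HS, -340 to 4 bp in W10min and -254 to -26 bp in W3h. All of them were also annotated to the promoter of AT5G56480.

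CPN60A (AT2G28000), the alpha subunit, had a peak in HS with a fold of 3.93 at q 6.68e-21, and none in HT0. It was not free of binding in the other untreated list: WT0 held a peak with a fold of 2.31 at q 1.42e-04. The fold was 3.31 with a q of 2.52e-11 in W10min and 2.74 with a q of 2.36e-09 in W3h, and W24h held no peak. The HS peak, chromosome 2, 11926271 to 11926875, contained those of WT0, W10min and W3h, which were 195 bp, 268 bp and 262 bp wide against 605 bp in HS. The gene shared each peak with the promoter of BLH8 (AT2G27990), a homeodomain gene.

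CPN60B (AT1G55490), another chloroplast beta subunit, had no peak in any list. The coding genes on either side of it, ZKT and ECT4, had none in any list either. Absence from a list means that no peak was listed there, since totals of reads are unknown and no detection limit can be set.

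CPN20 (AT5G20720), the chloroplast lid, was listed in the same pattern as Cpn60beta3. Its fold was 4.27 with a q of 3.28e-25 in HS, at chromosome 5, 7014423 to 7015016, with no peak in HT0. In W10min the fold was 3.85 with a q of 4.87e-16 and in W3h 1.94 with a q of 0.00572, with none at WT0 or W24h. No other gene was annotated to these peaks, which makes CPN20 the only member of the 8 with peaks of its own alone. The peaks of the 3 lists shared 267 bp, from -184 to 82 bp about the 5′ edge.

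CPN10 (AT1G14980), the mitochondrial lid, had the highest fold of any chaperonin in HS. That fold was 4.91 with a q of 1.33e-33, rank 24 of 2103, against a fold of 1.61 with a q of 0.155 in HT0, rank 746 of 1336. The HS peak was 654 bp wide, at chromosome 1, 5166384 to 5167037, and the HT0 peak of 91 bp lay inside it. After wounding the fold was 4.79 with a q of 2.09e-25 in W10min and 2.59 with a q of 5.49e-08 in W3h, and WT0 and W24h held no peak. W10min ranked it 46 of 1445 and W3h 108 of 626. The CPN10 peaks were also annotated to the promoters of AT1G14970 and the carboxypeptidase-like gene scpl50 (AT1G15000), and the HS peak reached into AT1G14990.

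The 3 HSP60 genes, which encode the mitochondrial barrel, had peaks after heat and few or weak ones after wounding. HSP60 (AT3G23990) had a fold of 4.32 at q 7.66e-26 in HS, rank 58 of 2103, and none in HT0. In W10min it had a fold of 2.16 at q 0.00274, rank 410 of 1445, and no other wounding list named it. The HS peak was 645 bp wide, at chromosome 3, 8668607 to 8669251, and contained the W10min peak of 174 bp. Both were also annotated to the promoter of BLI, which encodes a partner of Polycomb proteins.

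HSP60-2 (AT2G33210) had a fold of 2.41 at q 4.54e-06 in HS and none in HT0. Its W10min peak had a fold of 1.69 at q 0.507, rank 1142 of 1445, the lowest of the members there. HSP60-3A (AT3G13860) was listed in HS alone, with a fold of 3.00 at q 1.33e-10 at chromosome 3, 4565140 to 4565435, and no wounding list held a peak for it. HSP60-2 peaks were shared with AT2G33220 and the HSP60-3A peak with RHD3, a gene for a GTPase that shapes the endoplasmic reticulum. All 3 HSP60 genes were therefore without a peak at either time 0, at 3 h and at 24 h.

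**Figure D2:**
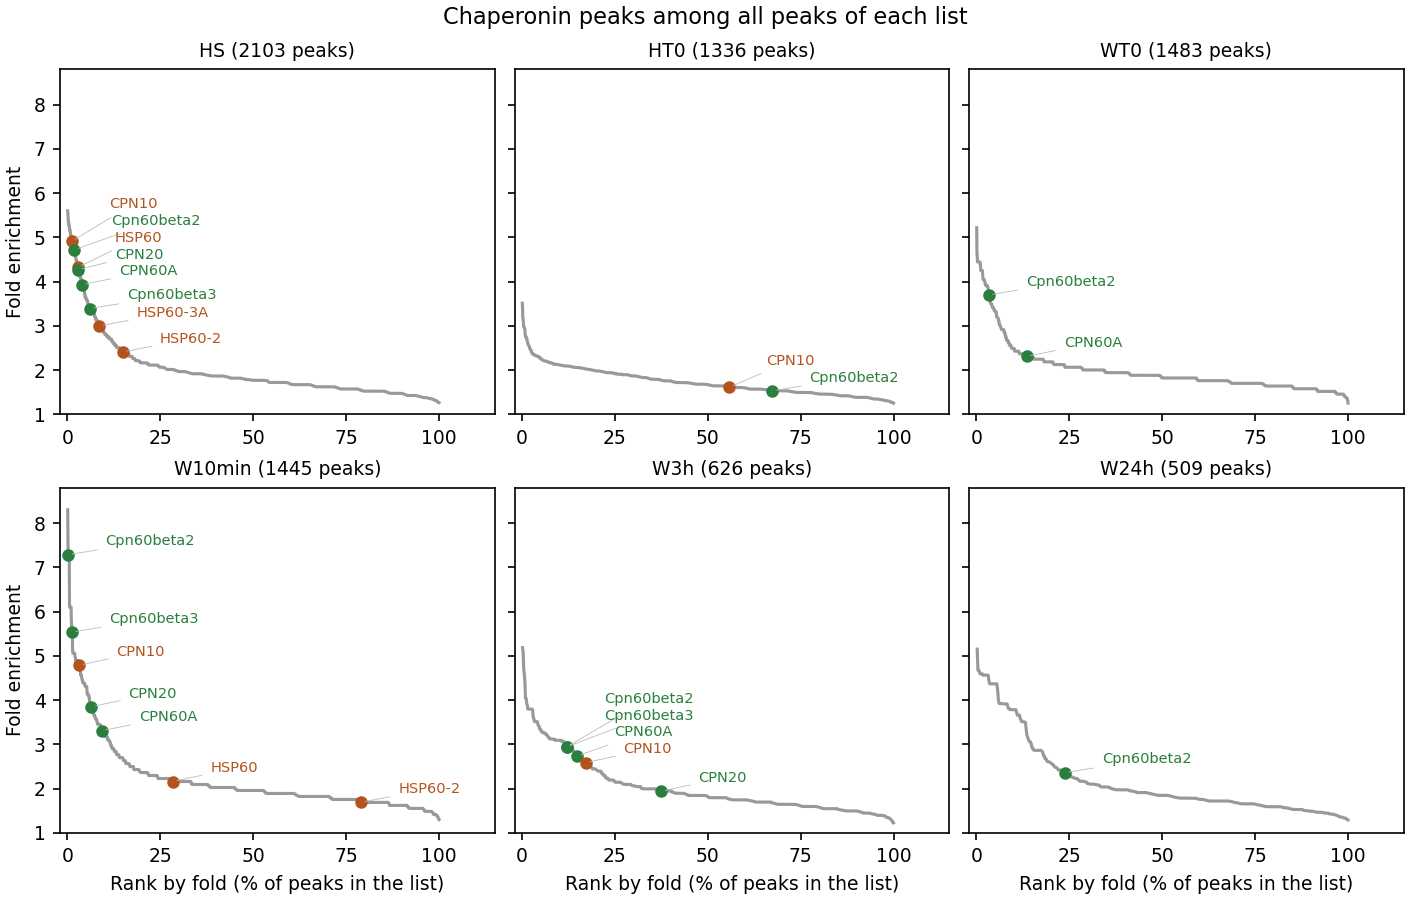
Fold enrichment of every peak (grey line) against its rank within the list (percent of peaks, highest fold at the left), with 1 panel per list and the chaperonin peaks marked (green chloroplast, brown mitochondrion). In HS all 8 members sit between 1.14% and 14.9%, while in W10min HSP60 and HSP60-2 sit at 28.4% and 79.0%. The third mitochondrial gene of W10min, CPN10, is at 3.18%, among chloroplast genes at 0.208% to 9.27%.

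The order of the members within a list differed between heat and wounding. In HS the order by fold was CPN10, Cpn60beta2, HSP60, CPN20, CPN60A, Cpn60beta3, HSP60-3A and HSP60-2. The first 4 places held 2 mitochondrial and 2 chloroplast genes. In W10min it was Cpn60beta2, Cpn60beta3, CPN10, CPN20, CPN60A, HSP60 and HSP60-2. The 4 chloroplast genes with a peak had folds of 3.39 to 4.72 in HS and 3.31 to 7.29 in W10min. The mitochondrial genes had folds of 2.41 to 4.91 over 4 genes in HS and 1.69 to 4.79 over 3 genes in W10min. W3h held 4 of the 5 chloroplast genes and 1 of the 4 mitochondrial genes, CPN10. These are orders in lists without replicates, and the difference between them was not tested. HS pools 3 ChIP samples and W10min rests on 1, so treatment, series and pooling cannot be told apart. That limit also holds for the HSP60 genes described above.

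Rank by q placed many of these peaks lower than rank by fold. Only 8 of the 25 highest peaks, 1 per gene and list, had the 2 ranks within 10 places. In W10min Cpn60beta3 was at rank 17 by fold and 93 by q, and CPN10 at 46 and 103. HSP60-2 in HS was at 313 and 434. Cpn60beta2 was at rank 3 by fold in W10min and at rank 81 by q, and 61 of the 80 peaks with a smaller q lay in a stretch of chromosome 2, between 3.2 and 3.8 Mb, that holds a dense block of peaks. Among the 1242 W10min peaks that name a coding gene outside that stretch it ranked 3 by fold and 16 by q. In HS no peak of the stretch stood above Cpn60beta2 by q, and its rank was 38 by either measure. The W3h rank of Cpn60beta2 and Cpn60beta3 was 75 of 626 among all peaks and 19 of 434 with that restriction, a setting chosen after seeing the data.

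Members with a peak after treatment and none at the matched time 0 were counted next. Of the 7 members free of a peak in HT0, 6 had one in HS: CPN60A, Cpn60beta3, CPN20, HSP60, HSP60-2 and HSP60-3A. Over all 26591 coding genes free of a peak in HT0 the share was 6.21%. Of the 7 members free in WT0, 5 had a peak in W10min (Cpn60beta3, CPN20, HSP60, HSP60-2 and CPN10), against 4.55% of 25496 free coding genes. In W3h it was 3 of the 7 (Cpn60beta3, CPN20 and CPN10), against 1.14%, and in W24h 0 of the 7, against 0.588%. CPN60A had a peak in WT0 and none in W24h, and no other member lost a time 0 peak in a treated list. WT0 named 1948 coding genes and W24h 402, of which 150 were free in WT0. Most coding genes with a WT0 peak thus had none in W24h, and the loss is not particular to CPN60A. The 3 wounding comparisons share the WT0 list. No member was absent from HS and present in a wounding list. The matching share of all coding genes was not computed. HS named the most coding genes of any list, 2145, and the members were chosen by their peaks in these lists.

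The untreated lists named 2 members each and had Cpn60beta2 in common. HT0 held CPN10 and Cpn60beta2, with a q of 0.155 and 0.432, and WT0 held CPN60A and Cpn60beta2, with a q of 1.42e-04 and 2.98e-16. At a q of at most 0.05, HT0 held 0 members and all 8 HS members counted as free of an HT0 peak. With both untreated lists as control, the counts were 5 in HS, 4 in W10min and 2 in W3h. The matching shares of all coding genes were not computed for either change, so these counts have no background beside them. HT0 was made from 3 ChIP samples and WT0 from 1, so series and pooling cannot be told apart here.

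**Figure D3:**
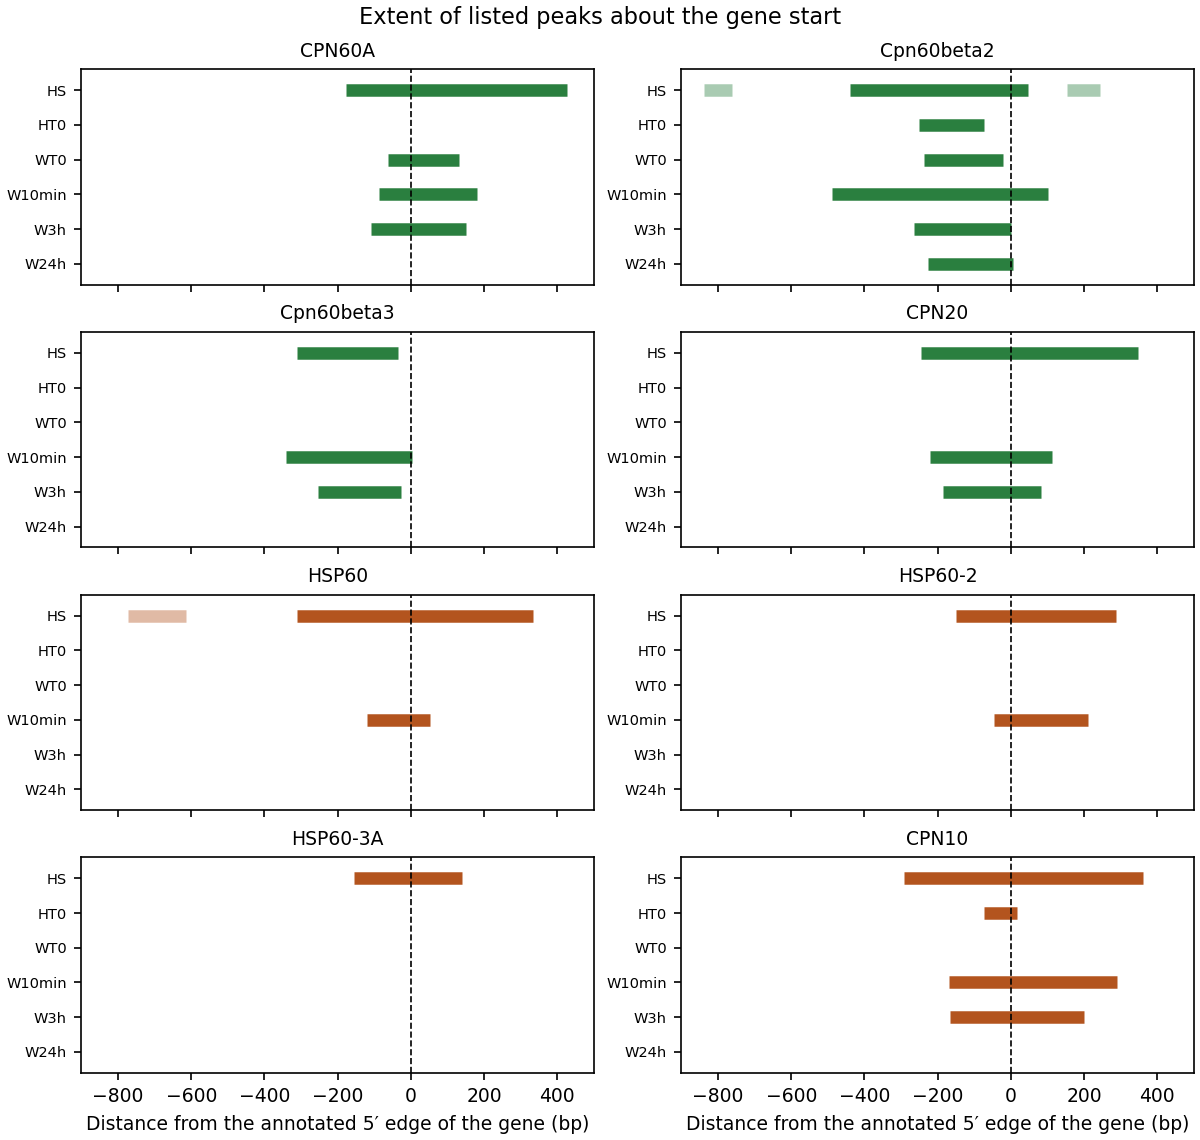
Extent of each listed peak about the annotated 5′ edge of the gene (dashed line at 0, distance in bp, upstream to the left), with 1 panel per gene and 1 row per list, and paler bars for additional weaker peaks. The highest peaks of a gene overlap across lists, and the HS bar is the widest in 6 of the 8 panels, with Cpn60beta2 and Cpn60beta3 wider in W10min.

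The peaks lay at the gene starts. Taking the highest peak of each gene in each list, 25 peaks in all, 21 covered the 5′ edge of the gene and the other 4 lay in the promoter only. Their midpoints lay between -195.5 and 124 bp, with a median of -27 bp. Counting weaker peaks too, in HS 7 of 11 pairs of a peak and a member covered the edge, against 17.8% of all pairs of a peak and a coding gene. In W10min it was 7 of 7, against 20.1%, and in W3h 4 of 5, against 24.2%. HT0 and WT0 each had 1 of 2, against 11.0% and 18.5%, and W24h 1 of 1, against 23.2%. The highest member peaks of HS were 278 to 654 bp wide, against a median of 144 bp over all HS peaks. The shares were not matched for width or fold. Of the 25 peaks, 22 were annotated to at least 1 further gene. Among peaks at coding genes generally, 50.5% in HS and 53.0% in W10min named several coding genes.

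Binding recurred at the same sites. The 17 highest peaks outside HS all overlapped the HS peak of the same gene, and 14 lay wholly inside it. The exceptions were Cpn60beta2 in W10min, with 82.6% of its width inside, and Cpn60beta3 in W10min and W3h, with 80.6% and 96.5%. A gene with peaks in several lists enters the 17 several times. The HS peaks were wide, at 278 to 654 bp against a list median of 144 bp. The matching share over all coding genes was not computed, so overlap and nesting are not shown to be particular to the members. Common cores ranged from 91 bp in CPN10, shared by 4 lists and set by the narrow HT0 peak, to 267 bp in CPN20. The core of CPN60A, shared by 4 lists, was 195 bp and that of Cpn60beta3, shared by 3, was 221 bp.

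Related genes outside the 9 were looked up in the same way. Among 5 further organelle chaperonin genes, 2 were named in HS and 1 in HT0, against 7.82% and 3.11% of all coding genes. WT0 and W10min named 1 of the 5 each, against 7.1%, and the later lists 0, against 2.55% in W3h and 1.46% in W24h. AT3G60210, a GroES-like gene, had a fold of 2.06 at q 0.001 across its gene start in HS. CHL-CPN10 (AT2G44650), a chloroplast lid, had promoter peaks of 1.67-fold (q 0.199) and 1.52-fold (q 0.993) in HS and 1.68-fold (q 0.051) in HT0. Its promoter peaks were of 3.09-fold (q 1.27e-10) in WT0 and 2.23-fold (q 0.00114) in W10min. These promoter peaks were shared with AT2G44660 and AT2G44670, and no listed peak met the 5′ edge of CHL-CPN10. WT0 also held a peak inside CHL-CPN10, 1.82-fold at q 0.0919. At a q of at most 0.05, HS named 1 of the 5 genes, AT3G60210, and HT0 named 0. Of the 9 genes for the cytosolic chaperonin CCT, the ring that folds actin and tubulin, 2 (22.2%) were named in HS and 0 in HT0, against the same 7.82% and 3.11%. WT0 and W10min named 1 each (11.1%, against 7.1%), and W3h and W24h 0. They were AT5G20890 (1.52-fold, q 0.993 in HS) and AT3G11830 (1.57-fold, q 0.599 in HS, 1.88-fold in WT0 and 1.96-fold in W10min), with promoter peaks shared with JAZ12 and SYP121.

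Partners of the chaperonins in the same organelles were the last list. Of 8 genes for organelle HSP70, HSP90 and ClpB proteins, which pass on, refold or disaggregate client proteins, 7 (87.5%) were named in HS and 1 (12.5%) in HT0, against 7.82% and 3.11% of coding genes. WT0 named 4 (50.0%) and W10min 5 (62.5%), against 7.1% in either list. W3h named 3 and W24h 2 of the 8, against 2.55% and 1.46%. These lists are short, were chosen with earlier results known, and were not tested against each other. The highest in HS were MTHSC70-2 (5.06-fold), CLPB4 (4.96-fold), cpHsc70-2 (4.67-fold) and CLPB3 (3.63-fold). In W10min they were cpHsc70-2 (7.16-fold, rank 6 of 1445), MTHSC70-2 (3.92-fold), HSP90.5 (3.65-fold) and cpHsc70-1 (3.17-fold). In W24h cpHsc70-2 (2.04-fold) and HSP90.5 (1.91-fold) were listed beside Cpn60beta2, all chloroplast forms.

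**Figure D4:**
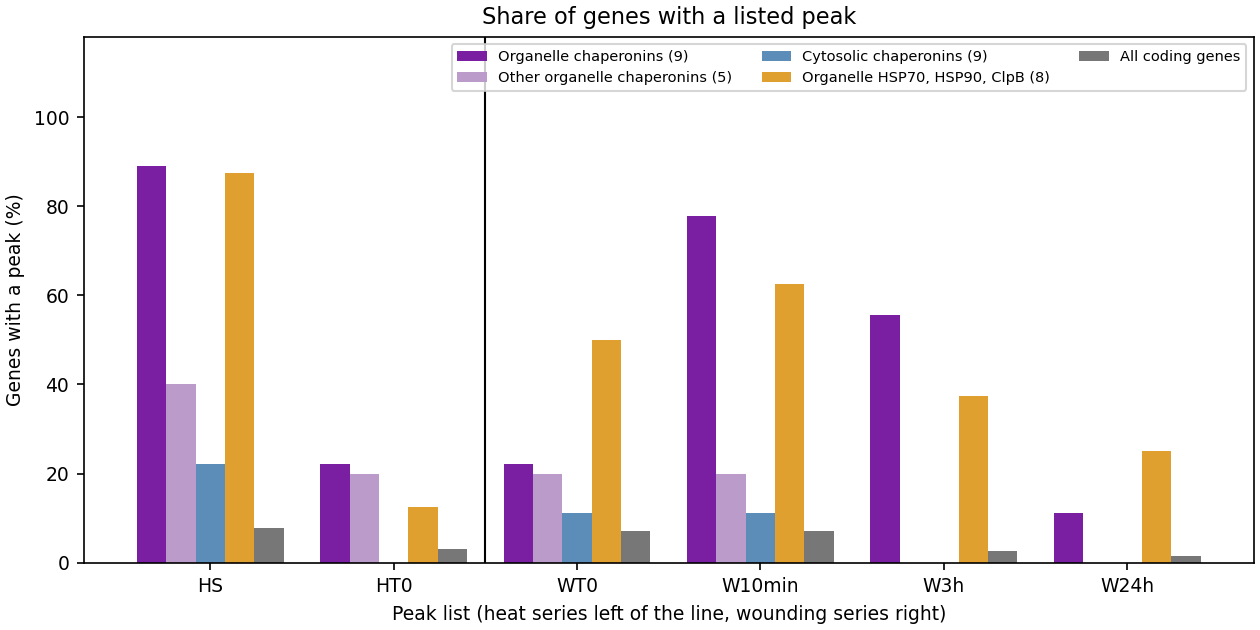
Percent of genes with a listed peak (bars) in each peak list, for the 9 organelle chaperonins, 5 further organelle chaperonins, 9 cytosolic chaperonins, 8 organelle HSP70, HSP90 and ClpB genes and all 27444 coding genes. The 9 chaperonins stand at 88.9% in HS and 22.2% in HT0, and the cytosolic ones at 22.2% and 0%.

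Other genes had the same presence over the 6 lists. The pattern of Cpn60beta2, present in all, was that of 135 coding genes, CPN60A's of 81, that of Cpn60beta3 and CPN20 of 71, and CPN10's of 10. HSP60 and HSP60-2 were among 249 genes with theirs, and HSP60-3A's, HS alone, was that of 929. Likeness within a pattern was the mean difference in rank share (percent of the list) over the lists with a peak, leaving aside genes on the member's own peak. The genes on a member's own peaks, named above, differ by 0.0 points by construction. Closest to Cpn60beta2 over 6 lists were AT5G23480 (6.0 points) and the cytosolic HSP90 gene HSP81-2 (7.07 points). PGK, a phosphoglycerate kinase gene, and FTSH12 were closest to CPN60A (1.39 points over 4 lists). For Cpn60beta3 the closest were CDC48, a segregase, at 4.55 points and AT2G43620 at 4.98 points over 3 lists. For CPN20 they were J2, an HSP40 co-chaperone, and AT5G22070, each at 1.17 points over 3 lists, and CDF1 at 2.47 points. For CPN10 the nearest gene was AT5G66050 at 18.7 points over 4 lists. Its pattern held only 10 genes, CPN10 and genes on its own peaks included, so few were left to compare. Smallest distances depend on the number of genes and lists in a pattern and do not compare members. HSP60 had AT3G09340 and Fes1A, an HSP70 partner, each at 0.856 points over 2 lists. HSP60-2 had AT4G30390 at 1.71 points and GFA2 at 2.62 points over 2 lists. HSP60-3A, with 1 list, had AT5G57100 at 0.0 points and VIM1 at 0.333 points. Genes at equal distance with adjoining identifiers may rest on shared peaks and need not be separate matches, which was not looked up. They are PGK (AT1G79550) with FTSH12 (AT1G79560), J2 (AT5G22060) with AT5G22070, and AT3G09340 with Fes1A (AT3G09350). All these distances describe position in the same lists and share their libraries.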

How the data were processed

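Per the labels' protocols, chromatin cross-linked with formaldehyde was sonicated, precipitated with anti-GFP and sequenced, and fastq files were concatenated. Bowtie2, SAMtools and MACS2 and the build TAIR10 are named in the submitters' processing notes. Their versions, any filter on q and the handling of reads with several matches are not stated in the sources available here. The fold enrichment is a ratio the authors deposited, and significance is a −log10 q the authors deposited, per the file headers. Deposited starts were taken to count from 0: adding 1 made 102 of 762 plus-strand gene rows of HS equal a gene start of the RefSeq table (assembly TAIR10.1), against 5 without, and 1 was added. That table gave names and the coding background only, and held all 31 identifiers used.

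Rows of a list with equal fold and q that overlapped or lay at most 1 base apart were joined into peaks. The code rebuilt 100% of 2000 simulated peaks, which lay well apart and were split by the 1-base gap the rule allows. That checks the code only: neighbouring peaks with equal fold and q, or rows split by wider gaps, were not simulated. Gene 5′ edges came from the border of promoter and gene rows. Peaks met when they shared at least 1 bp. A peak that shares its fold with others takes the highest rank. Analysis used Python 3.11.15, pandas 2.3.3, numpy 2.4.6 and matplotlib 3.10.9.

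The 9 members and the lists of related genes were chosen with earlier results of these data known. All 9 members are named, with every related chaperonin gene that had a peak, up to 4 partners by fold in HS and in W10min, and up to 3 genes per pattern closest in rank share. No test was run, since each condition has 1 list. Alternatives were a q of at most 0.05 or 1e-05, promoter rows only, the 509 highest peaks of every list, both time 0 lists as control, and time 0 peaks met by 1 bp, by 50% of both lengths or by midpoints within 200 bp. Promoter and protein sequences were not used here.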

Additional observations from a re-analysis of the deposited data

How the results depend on the processing

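Of 56 alternative counts of members, 51 lay within 1.5 times the count reported. These include the 10 counts from promoter rows only, which could not differ, as every member with a peak in a list had a promoter row there. A count of 0 that stayed 0 was also scored as within. The tally is therefore no measure of how firm the counts are. The count of 2 in HT0 became 0 at a q of at most 0.05, 0 at a q of at most 1e-05 and 0 among the 509 highest peaks. At a q of at most 1e-05 the count of 2 in WT0 became 1, Cpn60beta2, and the count of 1 in W24h became 0. The HS count stayed at 8 under the 4 settings run on it, and the W10min count ranged from 5 to 7. Members in HS and not in HT0 ranged from 5 to 8, in W10min and not in WT0 from 4 to 6, and in W3h and not in WT0 from 2 to 3. W24h gave 0 throughout. Shares of all coding genes with a peak were not computed under any alternative setting.

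Ranking among peaks of coding genes outside the chromosome 2 stretch, chosen after seeing the data, moved 9 of 25 rank shares by over 1.5 times, each to a higher place. Among them, Cpn60beta2 stood at 12.2% in W24h, against 23.8% among all peaks, and at 0.831% in WT0, against 3.3%. All 8 HS shares rose in percent, none by over 1.5 times, such as CPN10 from 1.14% to 1.57% and HSP60-2 from 14.9% to 19.7%. Their ranks did not fall: CPN10 stayed at 24 and HSP60-2 went from 313 to 301. The peaks ranked in HS went from 2103 to 1530, which raised the percent. Cpn60beta2 in W10min likewise rose from 0.208% to 0.242%, at rank 3 both ways. No paired analysis was possible because each condition has 1 deposited list. In HS and HT0 that list pools the reads of 3 ChIP samples, so their replicate numbers cannot be used and no replicate could be left out. WT0 and the wounding lists rest on 1 ChIP sample each, so they had no replicates. Fold and q rest on an unknown depth.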

Other observations

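In HS 3 further weak peaks flanked chaperonin gene starts. HSP60 had a promoter peak from -774 to -615 bp with a fold of 2.01 at q 0.00206. Cpn60beta2 had a promoter peak from -839 to -762 bp with a fold of 1.52 at q 0.993, and a peak inside the gene from 154 to 244 bp with a fold of 1.77 at q 0.0597. None of the 3 met a peak of another list.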
